A study of Mus musculus with 10 samples.

Results

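The replication-dependent histone genes are the clustered genes whose symbols begin with Hist1h, Hist2h, Hist3h or Hist4h. They were taken by name from the gene tables of sorted splenic monocytes, and a gene was kept when its TPM (a length-corrected share of the RNA in a library) was above 0 in at least 3 of the 10 libraries. Of 24421 genes in the tables, 68 carried such a symbol and 66 met the rule. Hist1h2bq and Hist1h4m were listed at 0 in every library. By class there were 6 genes of the linker histone H1, 18 of H2A, 18 of H2B, 12 of H3 and 12 of H4. By position, 52 members lay in the Hist1 cluster on mouse chromosome 13, 10 in the Hist2 cluster on chromosome 3, 3 in the Hist3 cluster on chromosome 11 and 1, Hist4h4, on chromosome 6. In the coordinates of the files (mm10), the members of the Hist1 cluster lay within chr13:21715713-23934913, those of Hist2 within chr3:96219916-96270192 and those of Hist3 within chr11:58948911-58955192, and Hist4h4 lay at chr6:136803993-136804431.

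H2A, H2B, H3 and H4 are the core histones around which DNA is wound in the nucleosome, and H1 binds the linker DNA between nucleosomes. Cells build most of their histones in S phase, when newly copied DNA has to be packed, from clustered genes that have no introns. Their mRNAs end in a conserved stem-loop in place of a poly(A) tail, the stem-loop is bound by Slbp, and the mRNAs are degraded when DNA synthesis stops. Some clustered genes, H1 genes among them, are also transcribed in cells that do not divide. Variants such as H3.3 and H2A.Z are made throughout the cell cycle from single genes outside the clusters.

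The cells were Ly6Chigh monocytes from the spleens of male mice aged 8 to 10 weeks, collected on day 5 after surgery. There were 3 libraries from wild-type (WT) C57BL/6 mice with sham surgery (thoracotomy without ligation, replicates 1, 2 and 3), 3 from WT mice with myocardial infarction (MI, permanent ligation of the left anterior descending artery, replicates 2, 3 and 4) and 4 from Foxp3DTR mice with MI (replicates 1 to 4). Foxp3DTR mice express the human diphtheria toxin receptor from the Foxp3 promoter, so that diphtheria toxin depletes regulatory T cells (Tregs). The toxin was given at 500 ng on days 2 and 1 before surgery and at 250 ng on day 2 after it. The study describes the WT mice set against Foxp3DTR mice after MI as treated with toxin too, while the labels give no toxin treatment for single WT libraries. Genotype and depletion cannot be told apart in any comparison with Foxp3DTR mice, and for the sham mice toxin treatment is not stated. All mice that had surgery received buprenorphine, and each library was taken as 1 mouse. The cells had been depleted of T and B cells and sorted as CD11b+ Ly6G- F4/80+ Ly6Chigh CD115+, and libraries were made from 20 to 50 pg of total RNA.

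The tables carried 3128250 to 8395480 reads per library as inferred from coverage, the fewest in WT sham 2. For the 54 members with 1 short gene model, the reads behind a value were estimated from coverage, with a median of 147 per library, a range from 0 to 4471, and fewer than 20 in 9.63% of values. All levels below are TPM divided by a scaling factor per library, written scaled TPM, and differences are on the log2(scaled TPM + 1) scale. The marker list of monocytes summed to 24454 to 52485 scaled TPM in the 10 libraries, and all 12 of its genes passed the filter on low values. Of the members, 65 passed that filter and Hist1h1t, the H1 gene of the testis, did not. The 8 members with 2 entries each in the tables were Hist1h2ao, Hist1h2ap, Hist1h2br, Hist1h4n, Hist2h2aa1, Hist2h2aa2, Hist2h3c1 and Hist2h3c2. They and the many coding regions of high identity may share reads, so single levels within a class are uncertain. Hist2h2aa1 with Hist2h2aa2, Hist2h3c1 with Hist2h3c2 and Hist1h2ao with Hist1h2ap were each listed at overlapping positions. Sums and counts over the members of a class or cluster therefore hold these positions more than once.

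Stem-loop sequences are shown because they are the element that sets these mRNAs apart from others, and they were read from GENCODE vM21 transcripts on GRCm38, the assembly also named mm10. A stem-loop of 16 bases was found in the transcripts of 45 members, in 4 of 6 H1, 11 of 18 H2A, 10 of 18 H2B, 9 of 12 H3 and 11 of 12 H4 genes. No match was found in the annotated transcripts of the other 21. Some of those are short, such as 312 bases for Hist1h4k, 381 for Hist1h2bn and 411 for Hist1h3h, though that of Hist2h2be has 2620. A short annotated transcript may end before the stem-loop, so no match does not mean that a gene lacks one. For each class the site of the most abundant member with a match is given, 5′ to 3′, with the stem-loop in capitals and the flanks in lower case.
Hist1h1e (H1, chr13:23621777-23621802, minus strand): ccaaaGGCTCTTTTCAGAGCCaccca
Hist2h2aa1 (H2A, chr3:96246027-96246052, plus strand): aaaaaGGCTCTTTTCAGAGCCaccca
Hist1h2bg (H2B, chr13:23571838-23571863, plus strand): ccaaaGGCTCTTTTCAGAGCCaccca
Hist1h3e (H3, chr13:23561898-23561923, minus strand): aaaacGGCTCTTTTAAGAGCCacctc
Hist1h4d (H4, chr13:23581945-23581970, plus strand): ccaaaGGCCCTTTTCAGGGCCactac
The stem of the H1, H2A, H2B and H3 genes with a match was GGCTCT paired with AGAGCC in every case. Of the H4 genes, 9 had GGCCCT with AGGGCC and 2 had GGTCCT with AGGACC. In 35 of the 38 members for which this could be measured, the gene model of the tables ended at most 20 bases past the stem-loop, so bases further downstream lay outside those models. GENCODE gave 18 members a transcript that ran at least 200 bases past the stem-loop, among them Hist1h1c, Hist1h1d, Hist1h1e, Hist1h2ac, Hist1h4d, Hist3h2a and Hist4h4. Between libraries the levels of these 18 genes varied with a median SD of 0.52 on the log2 scale. The median SD was 0.70 for the 27 genes whose transcripts ended near the loop and 0.69 for the 21 with no match. The 18 genes also included Hist1h2bh, Hist2h3c1 and Hist2h3c2, each with an SD above all of these medians. For H2B the median SD of the genes with long transcripts was above that of the genes with no match. In the other classes it was the lowest of the medians. Whether transcript length bears on the spread was not tested.

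The promoters of 4 members are shown as the 200 bases before the annotated start (RefSeq, GRCm38.p6), for a pair of H1 genes whose fold changes had opposite signs, for the H2B gene with the largest fold change between Foxp3DTR MI and WT MI and for the most abundant H4 gene. Capitals mark matches to any of 5 motifs on either strand: CCAAT (reverse ATTGG), the TATA box TATAAA, the octamer ATTTGCAT bound by Oct factors, the H1 box AAACACA and GGTCC (reverse GGACC), the core of an element known from H4 promoters.
Hist1h1e (chr13:23622559-23622758, minus strand): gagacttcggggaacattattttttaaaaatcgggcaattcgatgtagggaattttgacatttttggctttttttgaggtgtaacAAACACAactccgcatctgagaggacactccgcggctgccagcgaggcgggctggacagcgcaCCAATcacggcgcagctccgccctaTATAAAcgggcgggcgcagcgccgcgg
Hist1h1b (chr13:21780626-21780825, minus strand): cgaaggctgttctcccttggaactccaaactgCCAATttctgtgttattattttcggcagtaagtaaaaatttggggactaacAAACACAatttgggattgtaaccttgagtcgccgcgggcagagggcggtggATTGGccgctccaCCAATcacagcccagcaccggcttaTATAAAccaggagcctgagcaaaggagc
Hist1h2bm (chr13:21721844-21722043, plus strand): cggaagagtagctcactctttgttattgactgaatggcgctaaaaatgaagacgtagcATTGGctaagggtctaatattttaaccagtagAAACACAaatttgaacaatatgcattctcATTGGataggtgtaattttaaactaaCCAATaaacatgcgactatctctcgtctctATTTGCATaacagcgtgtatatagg
Hist1h4d (chr13:23581368-23581567, plus strand): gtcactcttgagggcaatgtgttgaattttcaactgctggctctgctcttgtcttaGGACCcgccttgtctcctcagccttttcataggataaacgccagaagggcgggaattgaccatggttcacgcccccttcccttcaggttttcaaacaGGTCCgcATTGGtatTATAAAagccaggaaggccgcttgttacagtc
Hist1h1e and Hist1h1b had the H1 box 115 and 117 bases before the start, a CCAAT match at 52 and 53 bases and a TATA match at 27 and 28 bases. Hist1h1b also had CCAAT matches at 66 bases, on the other strand, and at 168 bases, which Hist1h1e did not have. Promoters of 300 bases (250 before and 50 after the start) were matched for 59 members. CCAAT was found in 51 of the 59, in every matched promoter of the H1, H2A, H2B and H3 genes and in 3 of 11 of the H4 genes, against 37.4% of the 32851 promoters of the RefSeq table. The octamer occurred in 7 of 17 H2A and 7 of 15 H2B promoters and in none of the other classes, against 1.74% of all promoters. The H1 box was in 5 of 6 H1 promoters, against 7.18%, and GGTCC in 10 of 11 H4 promoters, against 45.5%. TATAAA was in 34 of 59, against 13.6%. A match is a description of the letters in this window. Of the H2A and H2B genes, 11 pairs were divergent neighbours whose starts lay 173 to 306 bases apart. Where both neighbours had a matched promoter, as Hist1h2ae and Hist1h2bg did, the windows overlapped. The same motif site could then be counted for both genes, so the H2A and H2B counts are not of separate promoters.

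In these monocytes the clustered histone genes summed to 9124, 9546 and 14986 scaled TPM in WT sham mice 1, 2 and 3. After MI in WT mice the sums were 22766, 11114 and 11206 in replicates 2, 3 and 4. In Foxp3DTR MI mice they were 16998, 16832, 10561 and 20525 in replicates 1 to 4. The highest library was therefore a WT MI library, the other WT MI libraries lay below sham 3, and Foxp3DTR MI 3 lay below all WT MI libraries, so the 3 groups overlapped. Means were 11219 ± 3269 (SD, n = 3) in WT sham, 15029 ± 6701 (n = 3) in WT MI and 16229 ± 4145 (n = 4) in Foxp3DTR MI mice. These genes made up 0.932 to 2.08% of all TPM in a library. Bulk RNA does not tell more cells in S phase from more histone RNA per cell.

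**Figure D1:**
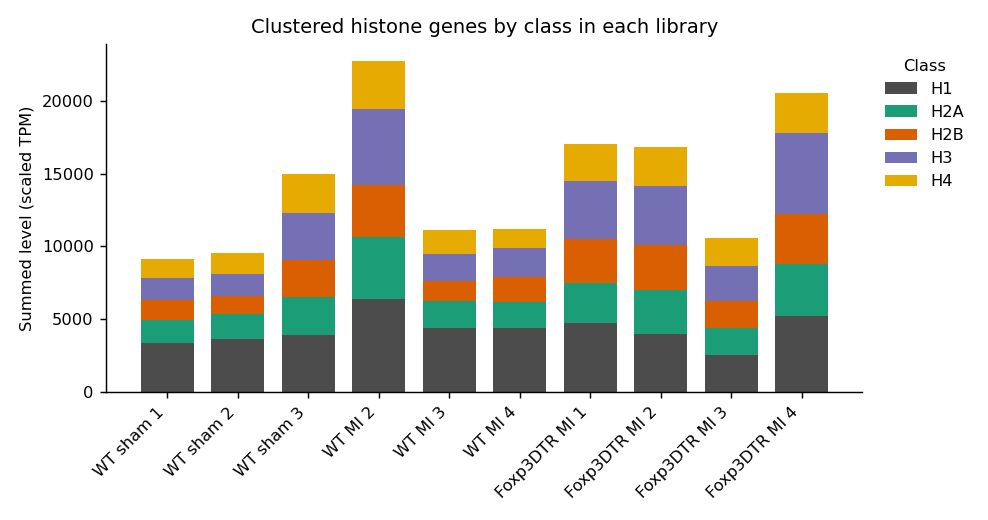
Summed level of the members of each histone class in scaled TPM (y axis) for the 10 libraries (x axis), stacked by class with no error bars since each bar is 1 library. The tallest bar is WT MI 2 at 22766 and the shortest is WT sham 1 at 9124, and bars of the 3 groups overlap in height.

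Most members had their extreme values in the same libraries. Of the 65 members tested, 64 were at their group's highest level in WT MI 2, 59 in WT sham 3 and 47 in Foxp3DTR MI 4, and 63 were at their group's lowest level in Foxp3DTR MI 3. WT sham 2, the library with the fewest reads, held the lowest of all 10 values for 36 members, and WT MI 2 the highest for 37. The median of the members' log2 levels ranged from 6.15 in WT sham 2 to 7.97 in WT MI 2.

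**Figure D2:**
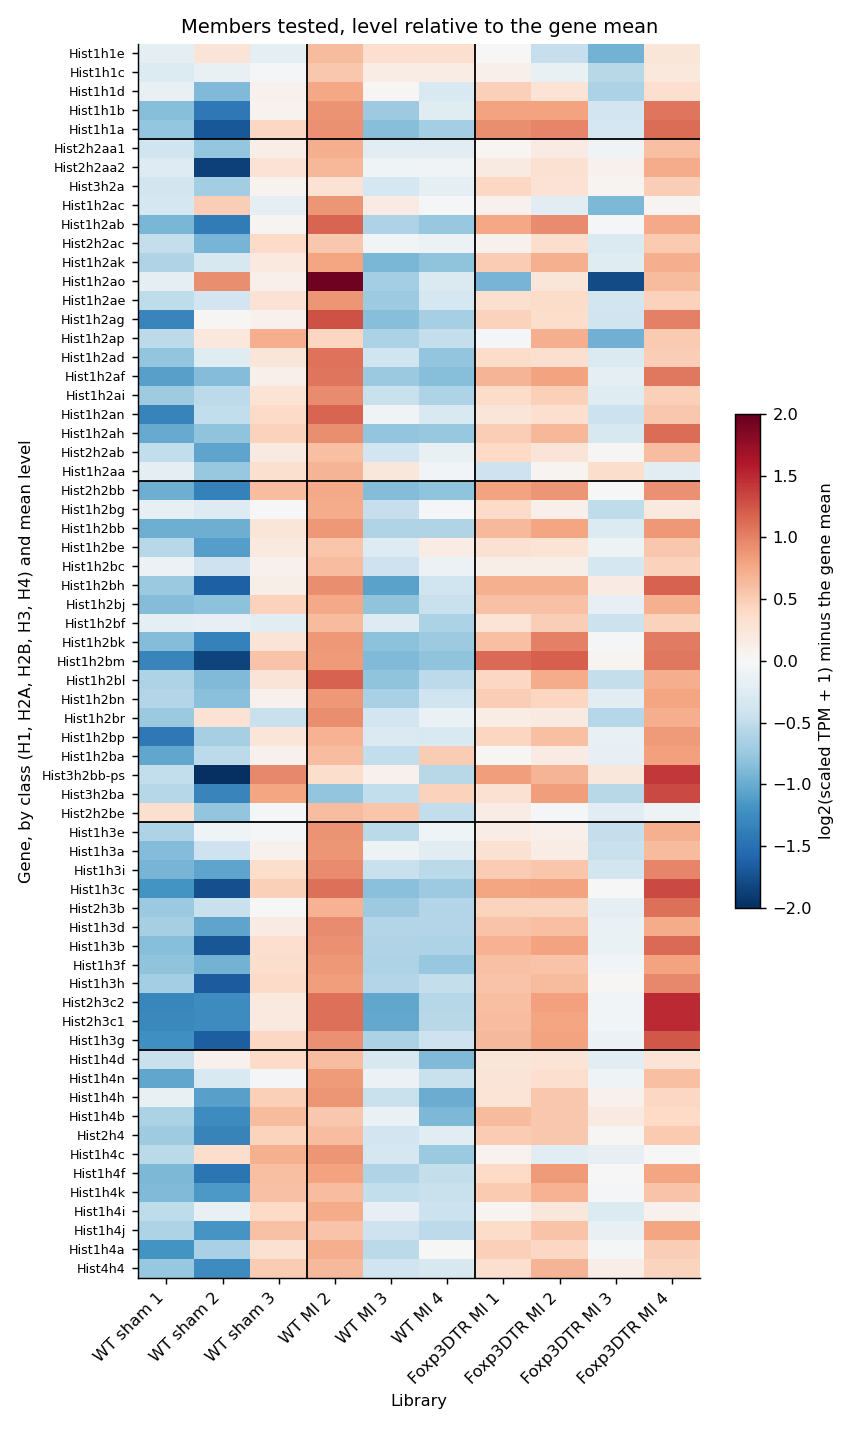
Level of each of the 65 members tested (rows, by class and by mean level) in each library (columns), as log2(scaled TPM + 1) minus the gene's mean over all libraries. WT MI 2, Foxp3DTR MI 1, 2 and 4 are above the mean in most rows, WT sham 1 and 2 below it, and the rows of Hist1h1e, Hist1h1c and Hist1h2ac differ from the rest in the Foxp3DTR MI columns.

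The first comparison asked how Treg depletion bears on monocytes after MI. Of Foxp3DTR MI against WT MI mice, none of the 65 members passed the test (limma, Benjamini-Hochberg adjusted p under 0.05 over 12938 genes), where 1.12% of all genes did. The lowest adjusted p was 0.206, for Hist1h1e. An unadjusted p under 0.05 was found for 1 member (1.54%), against 2295 of all genes (17.7%). Fold changes were positive for 52 members and negative for 13, with a median of 0.41 and a range from -0.78 to 1.14, whereas the median of all genes was 0.00080 and 50.1% were positive. No member was higher in all Foxp3DTR MI libraries than in all WT MI libraries, against 9.97% of all genes, and 1 member, Hist1h1e, was lower in all of them, against 9.02%. By class the medians were -0.04 for H1, 0.28 for H2A, 0.42 for H2B, 0.65 for H3 and 0.41 for H4. The median was 0.80 without WT MI 2, 0.21 without WT MI 3 and 0.23 without WT MI 4.

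The second comparison asked what MI does in WT mice. Between WT MI and WT sham mice no member passed the test, as was the case for all genes (0%). The lowest adjusted p was 0.960 and no member had an unadjusted p under 0.05, against 600 of all genes (4.64%). The fold change was positive for 61 members and negative for 4, with a median of 0.44, but the median was 0.021 without WT MI 2, 0.17 without WT sham 2, 0.26 without WT sham 1 and 0.77 without WT sham 3. Hist1h1c and Hist1h1e were higher in all WT MI than in all WT sham libraries, where 3.18% of all genes were, and no member was lower in all of them, against 3.73%.

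The third comparison, Foxp3DTR MI against WT sham mice, mixes genotype, depletion and surgery and shares its libraries with the other comparisons. No member passed the test here either, where 0.541% of all genes did, and the lowest adjusted p was 0.144 (Hist3h2a). The fold change was positive for 60 members and negative for 5, with a median of 0.80 against -0.0090 for all genes. An unadjusted p under 0.05 was found for 31 members (47.7%), all with a positive fold change, against 2403 of all genes tested (18.6%). Most members shared their extreme libraries, so they are not independent observations. Of the members tested, 1, Hist1h2bh, was higher in all Foxp3DTR MI libraries than in all WT sham libraries, against 9.8% of all genes, and none was lower, against 8.44%. Without WT sham 3, the sham library with the highest levels of most members, 13 members passed the test, all with a positive fold change and adjusted p from 0.0265 to 0.0499. They were Hist1h2be, Hist1h2bm, Hist1h2bp, Hist2h2bb and the pseudogene Hist3h2bb-ps of H2B, Hist1h4b, Hist1h4f, Hist1h4k, Hist2h4 and Hist4h4 of H4, Hist1h3c and Hist1h3g of H3, and Hist3h2a. Calls rose over all genes too. Of the 12938 genes, 403 passed with a higher and 220 with a lower level without WT sham 3, against 70 in the main fit.

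**Figure D3:**
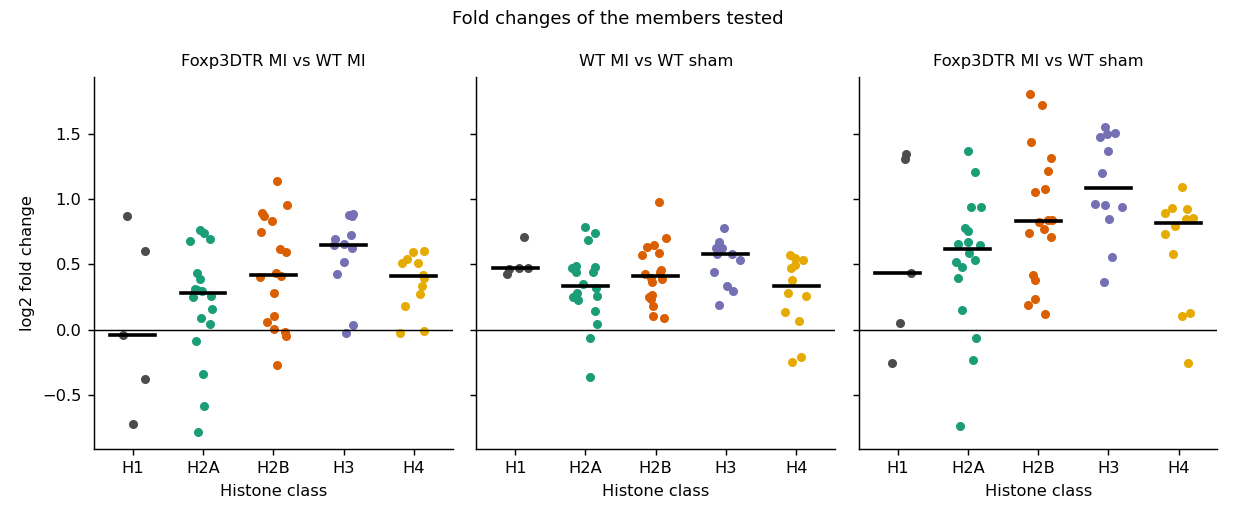
log2 fold change (y axis) of each member tested (points) by histone class (x axis) for the 3 comparisons, with horizontal bars at the class medians. The H1 median lies at -0.04 between Foxp3DTR MI and WT MI mice while the other class medians lie between 0.28 and 0.65, and no point passed the test in any panel.

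The linker histones took 23.6 to 39.7% of the histone TPM of a library, the largest share of any class in every library except Foxp3DTR MI 2 and 4, where H3 was larger. Their genes differed in the sign of their fold changes. Hist1h1e, the most abundant member, stood at 1479, 2025 and 1481 scaled TPM in WT sham mice, at 2600, 2116 and 2112 in WT MI mice and at 1669, 1225, 876 and 1994 in Foxp3DTR MI mice. All WT MI libraries were above all sham and all Foxp3DTR MI libraries, and the latter groups overlapped. The log2 fold change between Foxp3DTR MI and WT MI was -0.72 ± 0.27 (SE, limma adjusted p = 0.206). Hist1h1c, the next in level, stood at 1030, 1116 and 1212 in WT sham, 1791, 1377 and 1377 in WT MI and 1322, 1114, 847 and 1436 in Foxp3DTR MI mice. The WT MI libraries were above the sham libraries without overlap (fold change 0.43 ± 0.21, limma adjusted p = 0.960), and Foxp3DTR MI 4 lay above the lower WT MI libraries (fold change -0.38 ± 0.20, limma adjusted p = 0.346). Hist1h1d had a mean of 670.4 over all libraries and a fold change of -0.04 ± 0.34 between Foxp3DTR MI and WT MI mice.

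Hist1h1a and Hist1h1b had positive fold changes, as most core histone genes did. Hist1h1b stood at 187, 125 and 352 scaled TPM in WT sham, 627, 202 and 284 in WT MI and 589, 592, 257 and 705 in Foxp3DTR MI mice. Hist1h1a stood at 79.3, 41.1 and 181 in WT sham, 257, 74.4 and 84.0 in WT MI and 259, 268, 106 and 294 in Foxp3DTR MI mice. WT MI 2 and WT sham 3 were on the level of Foxp3DTR MI libraries or near it for both genes, and the groups overlapped. Their fold changes between Foxp3DTR MI and WT MI mice were 0.60 ± 0.47 and 0.87 ± 0.56 (limma adjusted p = 0.536 and 0.448). Among H1 genes, the share of Hist1h1a and Hist1h1b together was 4.54 to 13.7% in WT sham, 6.27 to 13.9% in WT MI and 14.6 to 21.7% in Foxp3DTR MI mice. The share of Hist1h1e was 37.9 to 55.5%, 40.9 to 48.3% and 30.9 to 38.1% in the same order. These shares do not depend on the scaling between libraries, and they put all Foxp3DTR MI libraries on 1 side of all WT MI libraries. They were compared after the single genes had been seen and were not tested. Hist1h1t, which marks spermatocytes, was listed at 0 to 1.66 scaled TPM.

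**Figure D4:**
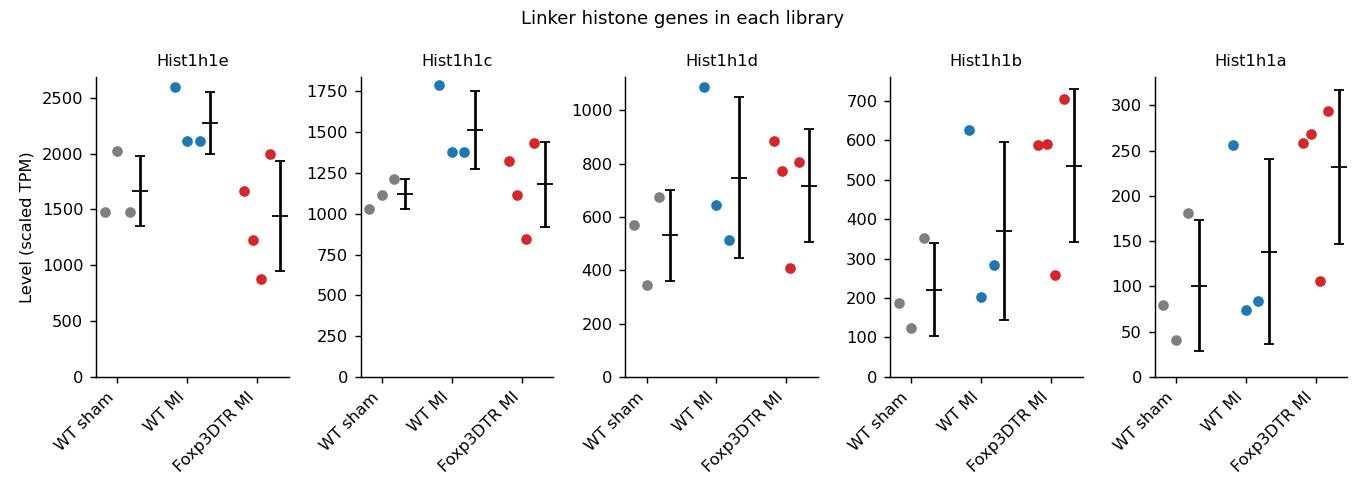
Level in scaled TPM (y axis, from 0) of the 5 linker histone genes tested, 1 panel per gene, with 1 point per library and the mean ± SD beside the points of each group (x axis; n = 3 WT sham, 3 WT MI and 4 Foxp3DTR MI). Hist1h1e lies between 876 and 1994 in Foxp3DTR MI mice, below the WT MI range of 2112 to 2600, while Hist1h1a and Hist1h1b overlap between groups.

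H2A genes summed to 1981 ± 569 scaled TPM in WT sham, 2622 ± 1411 in WT MI and 2796 ± 673 in Foxp3DTR MI mice (SD, n = 3, 3 and 4). In the comparison of the groups with MI, 14 of 18 had a positive fold change. The members of highest level were the near-identical Hist2h2aa1 and Hist2h2aa2, followed by Hist3h2a, Hist1h2ac and Hist1h2ab. Hist3h2a, the H2A gene of the cluster on chromosome 11, had the lowest p of the members between Foxp3DTR MI and WT sham mice. It stood at 193, 154 and 263 in WT sham, 308, 197 and 221 in WT MI and 333, 305, 260 and 355 in Foxp3DTR MI mice. All Foxp3DTR MI libraries but replicate 3, which lay just under sham 3, were above the sham libraries (fold change 0.65 ± 0.20, limma adjusted p = 0.144). Hist1h2ac stood at 154, 277 and 174 in WT sham, 363, 220 and 194 in WT MI and 208, 169, 105 and 204 in Foxp3DTR MI mice, with a fold change of -0.59 ± 0.30 against WT MI (limma adjusted p = 0.332). Hist1h2ab stood at 79.0, 56.2 and 157 in WT sham, 340, 98.2 and 88.8 in WT MI and 258, 290, 148 and 256 in Foxp3DTR MI mice, and its fold change against WT MI was 0.68 ± 0.48. Hist1h2aa, a testis gene, was at 0 to 1.70 scaled TPM. Hist1h2ao had the lowest fold change of all members, -0.78, but its 2 entries may share reads and its levels spread 13.7-fold.

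H2B genes summed to 1701 ± 716, 2219 ± 1175 and 2877 ± 717 scaled TPM in WT sham, WT MI and Foxp3DTR MI mice, and 15 of 18 had a positive fold change between the groups with MI. Hist1h2bm had the largest fold change of all members in that comparison. It stood at 29.0, 19.5 and 110 scaled TPM in WT sham, 133, 39.4 and 41.7 in WT MI and 162, 169, 76.1 and 154 in Foxp3DTR MI mice. Foxp3DTR MI 1, 2 and 4 were above every WT library and Foxp3DTR MI 3 was not (fold change 1.14 ± 0.59, limma adjusted p = 0.341). Hist2h2bb, the most abundant H2B gene, stood at 190, 146 and 574 in WT sham, 636, 204 and 213 in WT MI and 653, 688, 376 and 706 in Foxp3DTR MI mice (fold change against WT MI 0.95 ± 0.50, limma adjusted p = 0.353). Hist1h2bh stood at 62.9, 33.5 and 115 in WT sham and 174, 173, 118 and 241 in Foxp3DTR MI mice, which did not overlap (fold change 1.44 ± 0.49, limma adjusted p = 0.164). Other H2B genes were more even. Hist1h2bg ranged from 217 to 517 and Hist1h2bc from 163 to 334 over all 10 libraries, with fold changes of -0.05 ± 0.27 and 0.06 ± 0.25 between Foxp3DTR MI and WT MI mice. Hist1h2be and Hist1h2bb had fold changes of 0.11 ± 0.29 and 0.62 ± 0.43. Hist1h2ba, the H2B gene of the testis, was at 6.85 to 27.7 scaled TPM, and had a low p between WT MI and WT sham mice for this list (fold change 0.71 ± 0.37, limma adjusted p = 0.960).

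H3 had the highest class median fold change between Foxp3DTR MI and WT MI mice and between Foxp3DTR MI and WT sham mice, 0.65 and 1.08. The class summed to 2099 ± 982 scaled TPM in WT sham, 3045 ± 1912 in WT MI and 3971 ± 1285 in Foxp3DTR MI mice, and its share of histone TPM was 16.2 to 21.6%, 16.9 to 23.1% and 22.7 to 27.0%. Of its 12 members, 11 had a positive fold change between the groups with MI. Hist1h3e, the most abundant, stood at 247, 356 and 367 in WT sham, 703, 260 and 355 in WT MI and 419, 404, 271 and 621 in Foxp3DTR MI mice, and the fold change against WT MI was 0.03 ± 0.34. That of Hist1h3a was -0.02 ± 0.33. Hist1h3c stood at 119, 79.6 and 380 in WT sham, 583, 152 and 164 in WT MI and 468, 474, 274 and 683 in Foxp3DTR MI mice, with a fold change of 0.88 ± 0.58 (limma adjusted p = 0.459). WT MI 2 and WT sham 3 were at the level of the Foxp3DTR MI libraries for this gene, and the other WT libraries were below it. Hist1h3i and Hist2h3b had fold changes of 0.43 ± 0.45 and 0.65 ± 0.37 (limma adjusted p = 0.662 and 0.383).

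H4 genes summed to 1804 ± 778, 2094 ± 1082 and 2477 ± 381 scaled TPM in WT sham, WT MI and Foxp3DTR MI mice, with 10 of 12 fold changes positive between the groups with MI. Hist1h4d stood at 281, 406 and 497 scaled TPM in WT sham, 584, 305 and 207 in WT MI and 449, 460, 325 and 462 in Foxp3DTR MI mice, so that the groups overlapped widely (fold change against WT MI 0.33 ± 0.32, limma adjusted p = 0.616). Hist1h4n, Hist1h4h, Hist1h4b and Hist2h4 had fold changes of 0.18 ± 0.32, 0.51 ± 0.43, 0.60 ± 0.41 and 0.39 ± 0.37, and none passed the test. Hist4h4, the only member on chromosome 6, stood at 35.2, 24.4 and 86.0 in WT sham, 94.6, 45.1 and 47.7 in WT MI and 74.9, 96.9, 66.1 and 81.7 in Foxp3DTR MI mice, with fold changes of 0.42 ± 0.38 against WT MI and 0.90 ± 0.38 against WT sham (limma adjusted p = 0.599 and 0.244).

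The summed levels of the clusters were also compared between the groups with MI. The log2 ratio of the mean sums of Foxp3DTR MI to WT MI mice was 0.050 for Hist1, 0.42 for Hist2, 0.42 for Hist3 and 0.36 for Hist4. All H1 genes lay in Hist1, and the ratio of the H1 sums was -0.30, so cluster and class cannot be told apart in these ratios. The Hist2 sums also hold Hist2h2aa1 with Hist2h2aa2 and Hist2h3c1 with Hist2h3c2, which were listed at overlapping positions. The medians between Foxp3DTR MI and WT MI mice were 0.41 for Hist1, 0.35 for Hist2, 0.75 for the 3 genes of Hist3 and 0.42 for Hist4. The Hist1 cluster, which holds the H1 genes, took 82.3 to 88.9% of histone TPM in WT sham, 84.6 to 85.8% in WT MI and 80.0 to 82.8% in Foxp3DTR MI mice. The Hist2 cluster took 9.19 to 15.1%, 11.9 to 13.5% and 14.6 to 16.7%. Both shares overlapped between Foxp3DTR MI and WT sham mice and did not overlap between the groups with MI, a difference that was not tested. Hist1 and Hist2 together hold nearly all of the histone TPM. A lower share of Hist1 therefore goes with a higher share of Hist2, and the shares are not separate observations. In the Hist3 cluster, Hist3h2ba and the pseudogene Hist3h2bb-ps were low, at 3.40 to 26.5 and 0 to 29.4 scaled TPM, and had fold changes of 0.75 ± 0.55 and 0.83 ± 0.81 (limma adjusted p = 0.507 and 0.628). Divergent H2A and H2B neighbours had fold changes of the same sign in 6 of 11 pairs between the groups with MI. Examples were 0.70 and 0.89 for Hist1h2ah and Hist1h2bk, but -0.59 and 0.06 for Hist1h2ac and Hist1h2bc. In every pair of unlike sign, a neighbour had a fold change near 0, between -0.09 and 0.06. As 80% of the members tested had a positive fold change, like signs are frequent in any pair. Whether neighbours vary together was not tested.

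Histone levels were set beside the genes of DNA synthesis. The list of 45 S phase genes (helicase subunits, polymerases and their partners) summed to 592, 585 and 982 scaled TPM in WT sham, 1056, 579 and 690 in WT MI and 1232, 1371, 828 and 1235 in Foxp3DTR MI mice. The libraries with much histone RNA, WT sham 3, WT MI 2 and Foxp3DTR MI 1, 2 and 4, were also those with the highest S phase sums. None of the 45 genes passed the test between Foxp3DTR MI and WT MI mice, 43 had a positive fold change and the median was 0.69. The lowest p belonged to Mcm3 and Mcm4, subunits of the replicative helicase, and Prim1, the primase that starts new strands, with fold changes of 1.06, 0.74 and 1.31 (limma adjusted p = 0.147, 0.158 and 0.168). All 26 genes of mitosis and G2/M had positive fold changes, with a median of 1.10 and none past the test, and those of lowest p were Cdc20, Ccnb1 and Plk1 (1.66, 1.36 and 1.13, limma adjusted p = 0.157, 0.159 and 0.166). Mki67, a marker of cycling cells, and Pcna, the polymerase clamp, had fold changes of 1.07 ± 0.48 and 0.34 ± 0.22.

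Histone sums were also set against the S phase sum. The core histone sum was 9.77 to 11.3 times the S phase sum in WT sham, 9.90 to 15.5 times in WT MI and 9.38 to 12.4 times in Foxp3DTR MI mice. The H1 sum was 3.98 to 6.24 times the S phase sum in WT sham, 6.03 to 7.62 times in WT MI and 2.90 to 4.24 times in Foxp3DTR MI mice, and the Foxp3DTR MI and WT MI libraries did not overlap. These ratios were formed after the data were seen and were not tested. A fit with the S phase level as a covariate was also added after the data were seen. In it the median fold change of the members was -0.43 between Foxp3DTR MI and WT MI mice. It was -0.19 between Foxp3DTR MI and WT sham mice and 0.27 between WT MI and WT sham mice. No member passed the test in these comparisons, and neither did any of the 12938 genes. In that fit Hist1h1e and Hist1h1c had fold changes of -0.87 ± 0.34 and -0.64 ± 0.21 between Foxp3DTR MI and WT MI mice (limma adjusted p = 0.526 and 0.419).

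**Figure D5:**
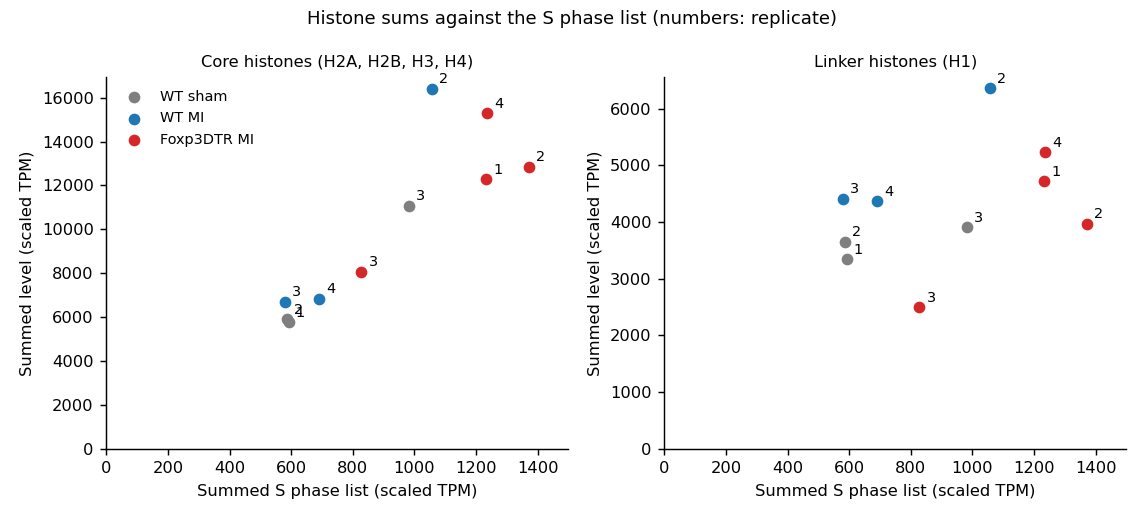
Summed level of core histone genes (left) and linker histone genes (right) against the summed level of the S phase list, all in scaled TPM, with 1 point per library coloured by group and numbered by replicate. On the left the libraries lie at 9.38 to 15.5 times the S phase sum, WT MI 2 highest, and on the right the Foxp3DTR MI points lie at 2.90 to 4.24 times it, below the WT MI points at 6.03 to 7.62 times.

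The genes that make and process histone mRNA had small differences. Of 19 listed genes 18 were tested, none passed in any comparison and the median between Foxp3DTR MI and WT MI mice was 0.15. Those of lowest p were Cstf2, a cleavage factor, Snrpd3, an Sm protein of the spliceosomal and U7 particles, and Casp8ap2, a cofactor of histone transcription, with fold changes of 0.51, 0.42 and 0.29 (limma adjusted p = 0.118, 0.132 and 0.344). Slbp, the stem-loop binding protein, had 49.7 ± 6.38, 54.5 ± 18.4 and 61.2 ± 5.63 scaled TPM in WT sham, WT MI and Foxp3DTR MI mice. Npat, the activator of histone gene transcription in S phase, had 19.6 ± 0.622, 19.1 ± 2.74 and 21.9 ± 3.18. Their fold changes against WT MI were 0.21 ± 0.19 and 0.19 ± 0.14. Of the 22 histone chaperones, which carry histones to and from DNA, none passed and 19 had a positive fold change in that comparison. Those of lowest p were Mcm2, Nasp and Rbbp7, with fold changes of 1.31, 0.73 and 0.60 (limma adjusted p = 0.188, 0.193 and 0.203).

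Of the listed histone variants, the H3.3 genes had negative fold changes. H3f3a and H3f3b, which both encode H3.3, stood at 579, 390 and 638 and at 619, 586 and 935 scaled TPM in WT MI mice. In Foxp3DTR MI mice they stood at 278, 263, 278 and 401 and at 483, 391, 387 and 492. The groups overlapped for H3f3a by a single library and did not overlap for H3f3b, and the fold changes were -0.80 ± 0.21 and -0.68 ± 0.21 (limma adjusted p = 0.093 and 0.147). The ratio of clustered H3 to H3f3a and H3f3b was 1.39 to 4.55 in WT sham, 1.28 to 4.38 in WT MI and 3.61 to 6.21 in Foxp3DTR MI mice. H2afz (H2A.Z) and H2afx, the variant phosphorylated at DNA breaks, had fold changes of 0.13 ± 0.19 and 0.75 ± 0.42. H2afj, an H2A variant, followed H3f3a and H3f3b in order of p, with a fold change of -0.32 (limma adjusted p = 0.257). None of the 11 variants tested passed, and 6 of 11 fold changes were positive.

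Markers of other cells differed between the libraries. The neutrophil list summed to 730 to 1570 scaled TPM in WT sham, 472 to 693 in WT MI and 1278 to 2892 in Foxp3DTR MI mice, and 3 of its 12 genes tested (Camp, Ngp and S100a9) rose between Foxp3DTR MI and WT MI mice. T cell markers summed to 8.99 to 167, 8.73 to 10.3 and 32.0 to 134, with none of 11 past the test, and NK cell markers to 64.0 to 217, 42.3 to 84.1 and 106 to 216, with 1 of 9, Klrk1, past it. Myeloid progenitor markers summed to 98.2 to 178, 105 to 275 and 162 to 371, with none of 11 past the test. The highest sums of T cell, NK cell, B cell, plasma cell and erythroid markers were all in WT sham 3, at 167, 217, 26.0, 693 and 265. Hbb-bt was listed at 0 in all libraries, 5 T cell, 6 B cell, 5 neutrophil, 3 plasma cell, 7 erythroid and 1 progenitor markers were at 0 in some, and Ly6g, Trac, Trbc1, Trbc2 and Ahsp were not used here. The monocyte list summed to 38147 to 52485, 43387 to 48734 and 24454 to 38942, with none of 12 past the test. Most of that sum was Lyz2, the lysozyme gene, at a mean of 33745 in WT sham, 35684 in WT MI and 18892 in Foxp3DTR MI mice. The mean log2 level over the 12 genes was 9.43 to 9.65, 9.49 to 9.83 and 9.43 to 9.79 in the same order, and 5 of the 12 had a positive fold change between Foxp3DTR MI and WT MI mice. The lists of plasma cells (356 to 693, 413 to 487 and 480 to 564), B cells (15.4 to 26.0, 12.5 to 15.7 and 8.77 to 15.4), erythroid cells (15.9 to 265, 8.32 to 23.4 and 18.4 to 50.7) and dendritic cells (258 to 326, 218 to 321 and 206 to 217) held 1 gene past the test, Cd79b of B cells, which fell in Foxp3DTR MI mice. Of the 5 B cell markers tested, 4 had a positive fold change between Foxp3DTR MI and WT MI mice, with a median of 0.26. The part of these other cell types in the histone levels was not tested.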

How the data were processed

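The authors sequenced RNA of sorted splenic monocytes as single-end reads of 50 bases. Per the submitters' processing notes, the tools were StringTie 1.3.0, STAR 2.5, cutadapt 1.1 and CASAVA 1.4, with the mm10 build. The strand setting is not stated. The deposited tables hold coverage, FPKM and TPM per gene as StringTie estimated them for the authors, and no read counts. Depth was inferred from coverage.

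TPM was summed per gene and divided by a median-of-ratios factor. The 12938 genes that reached 1 TPM in 3 or more libraries were tested with limma 3.58.1 in R 4.3.3 (variance trend, all 10 libraries in 1 fit, two-sided, Benjamini-Hochberg) on log2(scaled TPM + 1), which understates changes of low genes. The fit was tested on simulated data with independent noise, in which 200 genes of below-median spread were changed. That test does not measure how well changes are found in genes of higher spread or in genes that move together. The study's text counts its RNA-seq replicates as animals, and each library was taken as 1. Alternatives varied scaling, unit, pseudocount, filter, weights, the replicate block and the libraries.

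The members and lists were chosen with earlier results of these data known. Named were the 5 members of highest mean level per class, all Hist3h and Hist4h genes, the 3 of lowest p per comparison, and of each pathway list the 3 of lowest p plus Slbp, Npat, Mki67, Pcna, H3f3a, H3f3b, H2afz and H2afx. Hist1h2aa, Hist1h2ao, Hist1h1t, Lyz2 and the neighbour pairs were named after their values were seen.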

Additional observations from a re-analysis of the deposited data

Results flagged for a closer look

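In the 4 Foxp3DTR MI libraries, 4 of 41 levels checked had 1 library far from the others by Dixon's ratio (the gap to the nearest library divided by the group's range). For a single level, chance alone gives about 1 in 20. The 41 levels were members and sums over members, which are not independent, so their count cannot be set against that rate. The 4 levels were Hist1h2bm (0.831), Hist1h4d (0.900), Hist2h2bb (0.840) and Hist2h4 (0.944). In all 4 the library was Foxp3DTR MI 3 and the value the lowest of its group, as it was for 63 of the 65 members tested.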

How the results depend on the processing

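The number of members past the test was 0 in all comparisons in every fit, except between Foxp3DTR MI and WT sham mice, where leaving out 1 library gave 0 to 13, with 13 without WT sham 3. In the fit without WT sham 3, 403 of all 12938 genes passed with a higher and 220 with a lower level. The median fold change of the members kept its sign in every fit but that with the S phase covariate. There it turned in the comparisons with Foxp3DTR MI mice and not between WT MI and WT sham mice. The log2 ratio of the summed levels was -0.066 to 0.54 between Foxp3DTR MI and WT MI, -0.0076 to 0.69 between WT MI and WT sham and 0.40 to 0.80 between Foxp3DTR MI and WT sham mice over its alternatives. Leaving out 1 library gave medians of 0.21 to 0.80 between Foxp3DTR MI and WT MI, 0.021 to 0.77 between WT MI and WT sham and 0.56 to 1.09 between Foxp3DTR MI and WT sham mice. Of 2 alternatives chosen after seeing the data, the S phase level as a covariate gave a median of -0.43 between Foxp3DTR MI and WT MI mice. It gave 0.27 between WT MI and WT sham and -0.19 between Foxp3DTR MI and WT sham mice. Scaling over the histone members, which centres these genes by construction, gave 0.0046 between Foxp3DTR MI and WT sham mice. Leaving the TPM unscaled shifted the all-gene median by 0.22, -0.17 and 0.047 in the 3 comparisons, and the members' medians were then 0.65, 0.26 and 0.86. The values behind a member are few reads in places, and the tables keep no counting error.

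Replicate numbers were taken as a block in an alternative fit. Of 8 pairs of same-numbered libraries 1 had a correlation over 0.1, and 3 of 10 libraries correlated best with their own number, so the numbers were not taken to pair the samples. With the block the medians were 0.44, 0.40 and 0.78, no member passed, and 81 genes in place of 145 passed between Foxp3DTR MI and WT MI and 16 in place of 70 between Foxp3DTR MI and WT sham mice.

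Without scaling between libraries, the sign turned between Foxp3DTR MI and WT MI mice for Hist1h1d (0.20), Hist1h2bg (0.20), Hist1h3a (0.22). With quantile normalization, the sign turned between Foxp3DTR MI and WT MI mice for Hist1h1d (0.12), Hist1h2bg (0.042), Hist1h3a (0.078). With array weights, the sign turned between Foxp3DTR MI and WT MI mice for Hist1h1d (0.0057), Hist1h2bg (0.044). With FPKM, the sign turned between Foxp3DTR MI and WT MI mice for Hist1h2ba (-0.00054). With a pseudocount of 5, the sign turned between Foxp3DTR MI and WT MI mice for Hist1h2ba (-0.0034). With the replicate block, the sign turned between Foxp3DTR MI and WT MI mice for Hist1h3a (0.036). Without scaling between libraries, the sign turned between WT MI and WT sham mice for Hist1h2bc (-0.0030), Hist1h4h (-0.11), Hist3h2ba (-0.072). With quantile normalization, the sign turned between WT MI and WT sham mice for Hist1h4h (-0.056). With array weights, the sign turned between WT MI and WT sham mice for Hist1h4h (-0.20), Hist3h2ba (-0.11). With the replicate block, the sign turned between WT MI and WT sham mice for Hist3h2ba (-0.30). Leaving out 1 library at a time gave both signs between Foxp3DTR MI and WT MI mice for Hist1h1d (-0.28 to 0.26), Hist1h2ba (-0.35 to 0.21), Hist1h2bc (-0.16 to 0.35), Hist1h2be (-0.095 to 0.31), Hist1h2bg (-0.32 to 0.28), Hist1h3a (-0.23 to 0.33), Hist1h3e (-0.28 to 0.44), Hist1h4d (-0.0092 to 0.74), Hist1h4n (-0.092 to 0.56), Hist2h2aa1 (-0.070 to 0.40). Leaving out 1 library at a time gave both signs between WT MI and WT sham mice for Hist1h1a (-0.089 to 1.02), Hist1h2bb (-0.030 to 0.86), Hist1h2bc (-0.12 to 0.40), Hist1h2bg (-0.091 to 0.51), Hist1h3e (-0.069 to 0.65), Hist1h4b (-0.16 to 0.78), Hist1h4d (-0.61 to 0.14), Hist1h4h (-0.47 to 0.47), Hist2h2bb (-0.27 to 0.86), Hist2h3b (-0.26 to 0.45), Hist3h2ba (-0.39 to 0.67), Hist3h2bb-ps (-0.27 to 1.96). Leaving out 1 library at a time gave both signs between Foxp3DTR MI and WT sham mice for Hist1h1c (-0.053 to 0.20), Hist1h2ac (-0.40 to 0.018), Hist1h4d (-0.098 to 0.31). The cause of these changes was not tested.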
